A study of Mus musculus with 123 samples.

Results

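The 3 muscle actin genes and 4 genes for proteins that bind actin were examined in single cardiomyocytes (CMs) of the mouse heart at embryonic day 9.5 (E9.5), E12.5, and postnatal day 1 (P1). The genes were chosen by name, 7 of the 23337 genes in the count table: the cardiac actin Actc1, the skeletal actin Acta1, the smooth muscle actin Acta2, Tagln (transgelin, also called SM22), Cnn1 (calponin), and the alpha-actinins Actn2 and Actn1. All cells came from hearts of αMHC-GFP mice, in which the promoter of the alpha myosin heavy chain gene (Myh6) drives green fluorescent protein, so that CMs fluoresce. GFP-positive cells were sorted, caught singly on Fluidigm C1 chips, and read as full-length complementary DNA. The labels give no treatment for any cell, and the GFP transgene was common to all of them. Embryonic hearts were digested with collagenase and P1 hearts with a Liberase enzyme blend for longer, so age and dissociation cannot be told apart. The sources used here give no litter, animal, or sex for a cell, and each time point therefore stood as 1 sample, with no test across cells.

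A cell was used if 2000 or more genes had a count, which kept all 42 cells of E9.5 hearts, all 29 of E12.5 hearts, and 41 of the 52 of P1 hearts. Where 3 values stand side by side without an age, they follow the order E9.5, E12.5, P1. The titles of the cells fall into naming sets, whose meaning is not given in the sources used here: set C (14 cells) and set N530 (28 cells) at E9.5, set C (20 cells) and set N523 (8 cells) at E12.5 with 1 cell of another name, and set C (41 cells) at P1. Sets N530 and N523 were read far deeper than sets C and supplied 94.5% and 82.7% of all counts of their time points. Total counts of a cell ran from 268301 to 6351742 in E9.5 hearts, from 148258 to 7711355 in E12.5 hearts, and from 69522 to 327360 in P1 hearts. Levels are given as CPM, counts per 1000000 counts of a cell or time point, pooled over the cells of a time point with an exact Poisson 95% interval, which covers counting error only. Of 10 CM markers, at least 5 reached 100 CPM in 39 of 42, 29 of 29, and 40 of 41 kept cells. The 4 cells below that cut were 3 of set C of E9.5 and 1 of P1. The 10 markers summed to 71352, 43029, and 72832 CPM over the 3 ages, but to 26908, 38128, and 72832 CPM within the sets C, so their order depends on the set.

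On GRCm38 the GENCODE models of the muscle actins lie at chr2:114047282-114053548 (Actc1), chr8:123891769-123894751 (Acta1), and chr19:34241090-34255590 (Acta2). Tagln lies at chr9:45929619-45936058, Cnn1 at chr9:22099216-22109630, Actn2 at chr13:12269426-12340760, and Actn1 at chr12:80167547-80260371. Cnn1 is on the plus strand and the other genes are on the minus strand. Of the 75-base windows of their main transcripts, 0.437% in Acta1 and none in the other 6 also occur in another annotated gene. Windows that match without mismatch thus tell the isoforms apart, while the mapping of the reads was not tested.

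Actins polymerize into the thin filaments on which myosin pulls. The adult heart muscle cell uses the cardiac isoform almost alone, whereas smooth muscle cells are recognized by Acta2, Tagln, and Cnn1. Early CMs are known to pass through a phase in which they also carry the skeletal and smooth muscle isoforms and several smooth muscle proteins. Alpha-actinin ties thin filaments together, Actn2 in the Z-disc of the sarcomere and Actn1 mainly at stress fibres and adhesions.

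Between the embryonic time points and P1, 4 of the 7 genes became scarce, and Actc1 stayed the main muscle actin throughout. Acta1, Tagln, Cnn1, and Actn1 were lower at P1 than at E9.5 and than at E12.5 by the rule used, a difference of 2-fold or more the same way in the pooled levels and in every combination of naming sets of 6 or more cells. The call of Acta1 against E12.5 was the only one of these lost under another setting tried. Among all genes that reached 10 CPM in the higher time point, 26.6% were lower and 13.2% higher at P1 than at E9.5, and 16.2% were lower and 15.6% higher at P1 than at E12.5. None of the 7 genes was called higher at P1. Between E9.5 and E12.5 none of them was called in either direction, where 10.7% of all tested genes were lower and 3.43% higher at E12.5. The median log2 ratio of the 7 genes was −2.34 for P1 over E9.5 and −1.17 for P1 over E12.5, beside −0.59 and 0.05 over all tested genes.

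**Figure D1:**
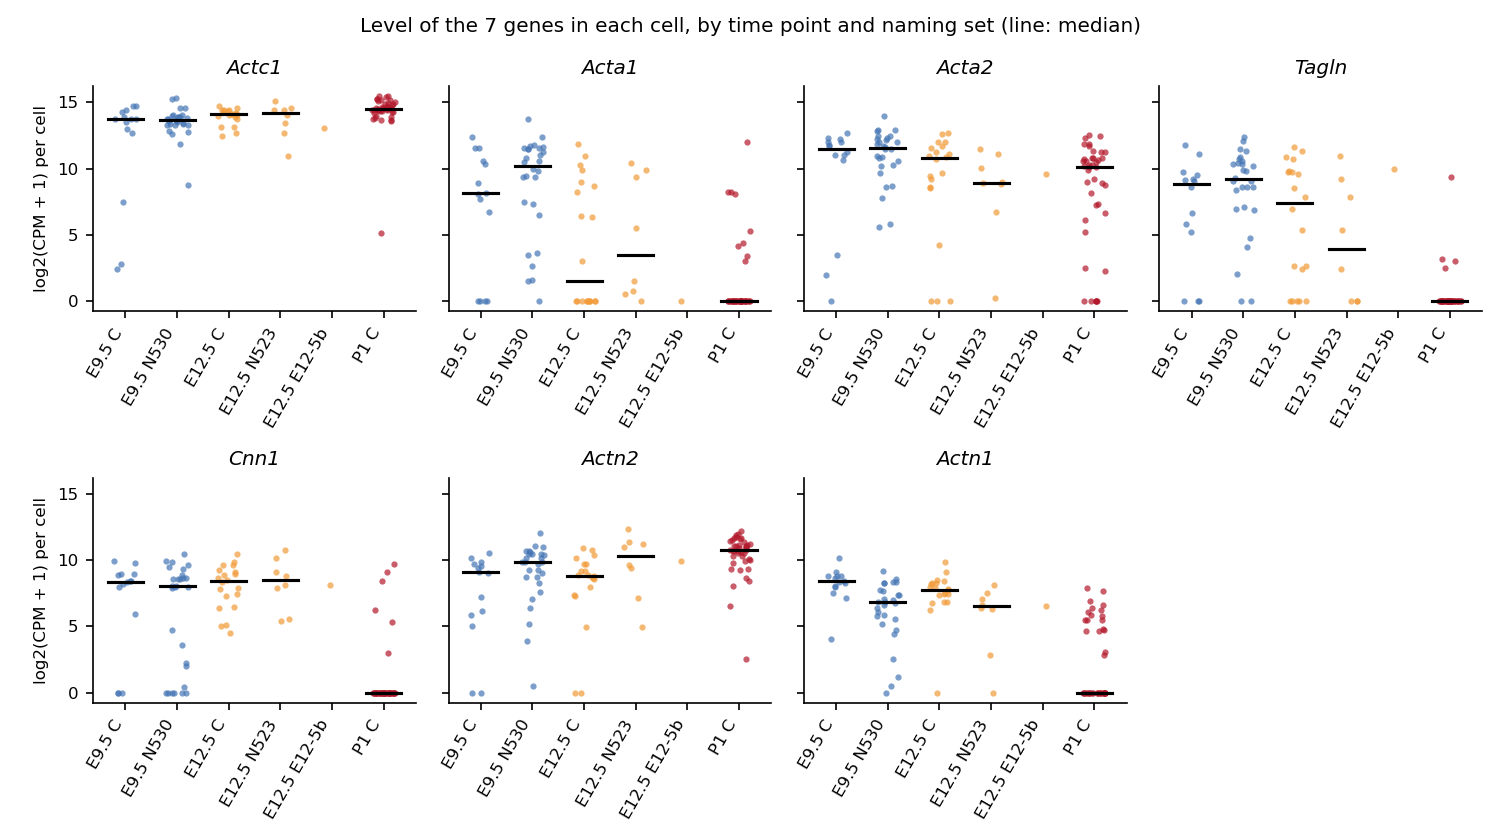
Level of each of the 7 genes in each kept cell as log2(CPM + 1), by time point and naming set, with 1 point a cell and a line at the median of each set of 6 or more cells. Actc1 lay in a narrow high band apart from a few cells, and the medians of Acta1, Tagln, Cnn1, and Actn1 were 0 at P1.

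Actc1, the sarcomeric actin of the heart, was found in all 112 kept cells. Its pooled level was 15826 CPM (15802 to 15851) in the E9.5 cells, 17884 CPM (17847 to 17920) in those of E12.5, and 25544 CPM (25424 to 25664) in the P1 cells. Over single cells it ran from 4.35 through a median of 13213 to 40958 CPM in E9.5 hearts, from 2005 through 17949 to 35995 CPM in E12.5 hearts, and from 34.04 through 23645 to 45353 CPM in P1 hearts. Cells of the 3 time points overlapped over most of this range. The ratio of P1 to E9.5 was 1.61-fold, a log2 ratio of 0.69 with 0.67 and 1.07 against the sets N530 and C, and it was not called. The naming sets at E12.5 held 17586 CPM (set C) and 18060 CPM (set N523), and those at E9.5 held 12141 CPM (set C) and 16042 CPM (set N530). Pooled levels therefore ran E9.5, E12.5, P1 from low to high in every set, with steps below 2-fold between neighbours.

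The lowest values of Actc1 belonged to the cells without the CM markers. In the 3 cells of set C at E9.5 it stood at 4.35, 5.84, and 176 CPM, and Acta2 at 0, 2.92, and 10.3 CPM, while Actb, the cytoplasmic beta-actin, reached 33279 to 53376 CPM. In the P1 cell it stood at 34.04 CPM, with Acta1, Acta2, Tagln, and Cnn1 at 0, Actb at 20655 CPM, and 10050 CPM in the summed endothelial markers. Another cell with low Actc1, 433 CPM in set N530, also had high Actb, 29795 CPM, but passed 100 CPM in all 10 markers. These 5 cells joined low Actc1 to high Actb, but the cell lowest in Actc1 at E12.5, 2005 CPM, held 2031 CPM of Actb, and 2 further cells of set C at E9.5 held 33810.1 and 31696 CPM of Actb with Actc1 near the median of their set.

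Acta1, the actin of skeletal muscle fibres, varied widely from cell to cell. Its pooled level was 2273 CPM (2264 to 2282) in the E9.5 cells, 398 CPM (393 to 404) in those of E12.5, and 177 CPM (167 to 187) in the P1 cells. The median cell held 801, 1.82, and 0 CPM over the 3 ages, and the highest cells held 13997, 3728, and 4212 CPM. The median cell was thus near 0 from E12.5 on, while at each time point the highest cells stood far above it. Acta1 was found in 37 of 42 cells (88.1%, exact 95% interval 74.4 to 96.02), then in 17 of 29 (58.6%, 38.9 to 76.5), and last in 9 of 41 (22.0%, 10.6 to 37.6). After every cell was thinned to 50000 counts, the shares were 81.0%, 48.3%, and 14.6%. The order over time was thus the same at equal depth.

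The pooled ratio of Acta1 was 12.9-fold lower at P1 than at E9.5 (log2 −3.69, −3.73 to −2.54 over the naming sets) and 2.25-fold lower than at E12.5 (log2 −1.17, −1.63 to −1.08). The latter call was lost with a minimum of 3000 genes in a cell and without the cells titled "no". E12.5 over E9.5 gave −2.51 on the log2 scale, but from −2.65 to −0.91 over the sets, which ended the call. Single cells carried much of these sums: the top cell of each age held 32.6%, 39.3%, and 88.8% of its Acta1 counts. Without these cells the pooled levels were 1618, 273, and 20.6 CPM. The 8 other P1 cells with Acta1 held 6.98 to 307 CPM.

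Acta2, the actin of vascular smooth muscle, was highest at E9.5 and remained in most cells at P1. The pooled level was 4110 CPM (4097 to 4122) in the E9.5 cells, 1043 CPM (1034 to 1052) in those of E12.5, and 1397 CPM (1369 to 1426) in the P1 cells. Cells ran from 0 through a median of 3069 to 15804 CPM in E9.5 hearts, from 0 through 801 to 6563 CPM in E12.5 hearts, and from 0 through 1096 to 5811 CPM in P1 hearts. The ranges overlapped broadly. It was found in 41 of 42 cells (97.6%), 26 of 29 (89.7%), and 35 of 41 (85.4%, 70.8 to 94.4), and after thinning in 92.9%, 86.2%, and 80.5%. Acta2 was therefore the only gene among Acta1, Acta2, Tagln, and Cnn1 that most P1 cells still held.

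P1 over E9.5 was 2.94-fold lower for Acta2 (log2 −1.56), and it was −1.58 with set N530 but −0.97 with set C as the base, so that it missed the call by the narrower of these. It was called lower when cells were weighed alike (TPM or means of cell CPM), after thinning, in cells that passed the marker cut, with at least 3000 genes, and at 1.5-fold. Acta2 in set C at E12.5 stood at 1806 CPM and in set N523 at 896 CPM, on either side of P1, and the order of E12.5 and P1 is thus not settled. P1 over E12.5 was 0.42 on the log2 scale from pooled counts, −0.37 against set C alone, and −0.45 from the mean of the deposited TPM values, which weigh each cell alike. At E12.5, 1 cell held 32.3% of the Acta2 counts, and 799 CPM remained without it.

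**Figure D2:**
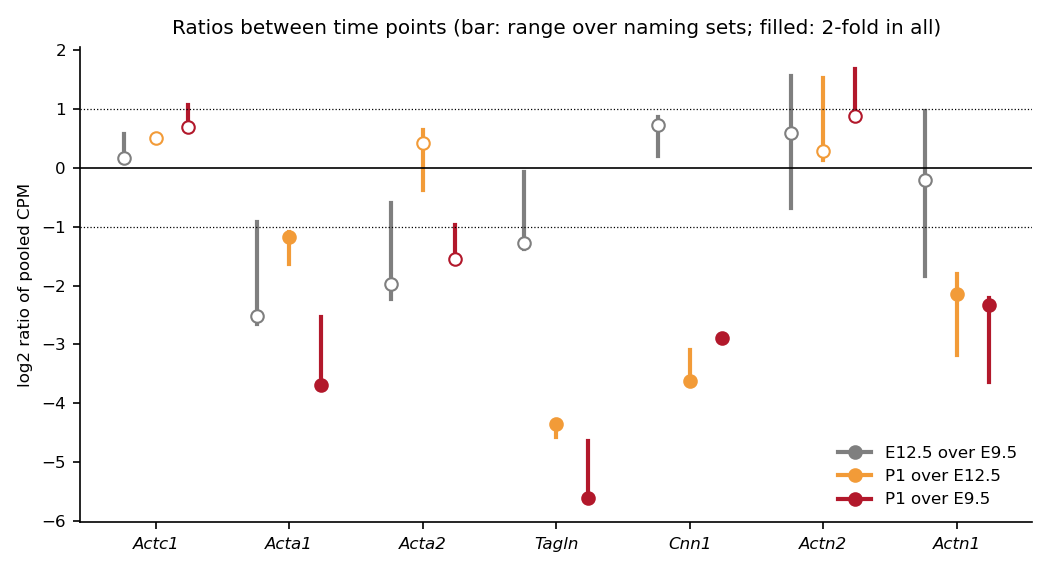
Log2 ratio of pooled CPM between time points for the 7 genes (point), with a bar over all combinations of naming sets of 6 or more cells. Filled points passed 2-fold the same way in every combination, which held for Acta1, Tagln, Cnn1, and Actn1 at P1 and for no gene between E9.5 and E12.5; a bar shorter than its point is hidden.

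Because CPM does not correct for transcript length, the isoforms were compared through the deposited TPM values. Of the summed mean TPM of Actc1, Acta1, and Acta2, Actc1 made up 77.0%, 90.4%, and 95.4% over the 3 ages. Acta2 made up 14.1%, 7.27%, and 4.15%, and Acta1 8.98%, 2.29%, and 0.470%. These means lean on few cells for Acta1, whose share in the median cell was 4.19%, 0.022%, and 0%, while that of Acta2 was 13.9%, 4.74%, and 2.93%. Actc1 was more than all other muscle actin together in each of the 112 cells, with a lowest share of 56.0%, 68.1%, and 83.3%. The widest mixtures were thus seen in the earliest cells, where Acta2 reached 42.1% and Acta1 30.7% of a cell's muscle actin. The sets bore the same order: Actc1 held 79.4% and 76.0% in sets C and N530 at E9.5, and 89.1% and 93.9% in sets C and N523 at E12.5.

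The cytoplasmic actins were set beside the muscle isoforms. Actb stood at 5136 CPM in the E9.5 cells, 4443 CPM in those of E12.5, and 1690.1 CPM in the P1 cells and was called lower at P1 against both. Its sets were 18060.5 CPM (C) and 4379 CPM (N530) at E9.5 and 5357 CPM (C) and 4248 CPM (N523) at E12.5, and without 1 cell P1 held 1100.4 CPM. Actg1, cytoplasmic gamma-actin, stood at 860.4, 874, and 494 CPM and was not called, and 54.5% of its 75-base windows also occur in another annotated gene, so its level is uncertain. Actg2, the enteric smooth muscle actin, had 1 count in 1 cell at E9.5 and none in the 29 and 41 other cells. The exact Poisson upper limits for these were 0.0730 and 0.541 CPM. Of the 5 actins that held more than single counts, Actc1 made up 54.1%, 71.8%, and 89.5% of the mean TPM and Actb 26.7%, 17.1%, and 4.76%. Without the 4 cells under the CM marker cut, Actb made up 19.6% at E9.5 and 3.05% at P1.

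**Figure D3:**
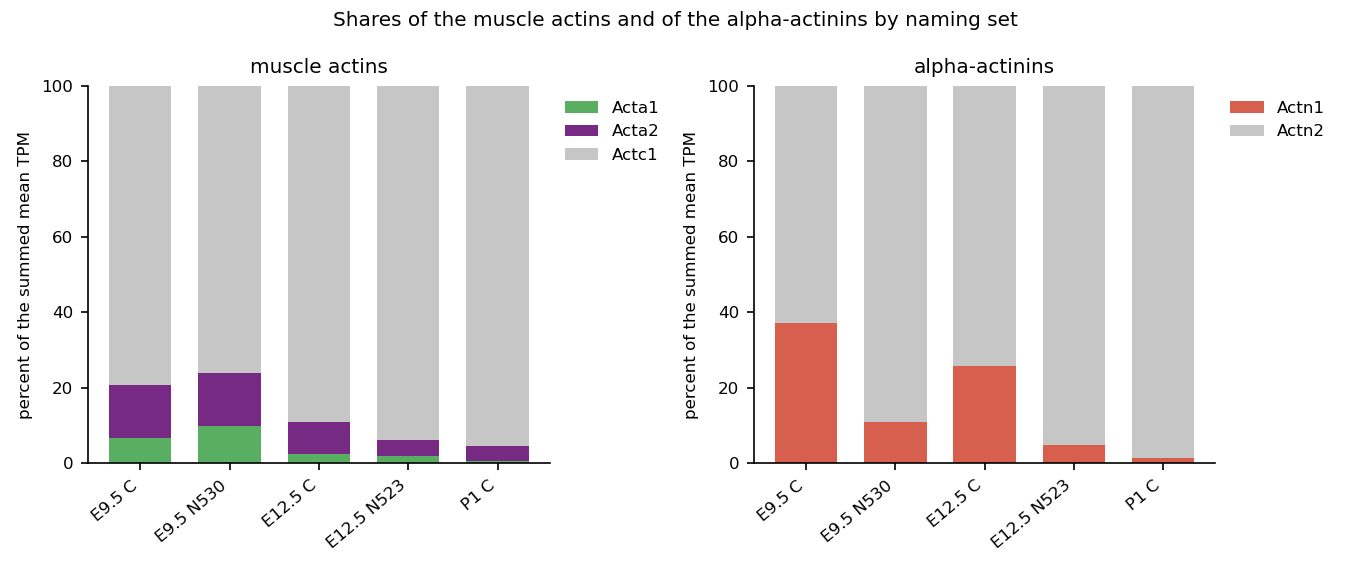
Percent of the summed mean TPM of the muscle actins (left) and of the alpha-actinins (right) by naming set. Acta1 and Acta2 together took the largest part of the muscle actins at E9.5 and the smallest at P1, and Actn1 took more of the alpha-actinins in the sets C than in the deeper sets of the same age.

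Muscle actin genes are textbook targets of serum response factor (Srf), which binds a sequence called the CArG box, CC and GG around 6 letters that are each A or T. The 250 bases before the RefSeq start (GRCm38.p6) of the 3 actin genes are shown because these genes share the family but not the course over time. All 3 lie on the minus strand, and the sequences read 5′ to 3′ in the direction of transcription. They are chr2:114052876-114053125 for Actc1, chr8:123894776-123895025 for Acta1, and chr19:34255374-34255623 for Acta2, and capitals mark each CArG box and each window with 1 middle letter other than A or T. The GENCODE models of Actc1 and Acta2 reach further upstream than these starts, and that of Acta1 begins downstream of its start. The distances given below therefore hold for the RefSeq starts only.
Actc1: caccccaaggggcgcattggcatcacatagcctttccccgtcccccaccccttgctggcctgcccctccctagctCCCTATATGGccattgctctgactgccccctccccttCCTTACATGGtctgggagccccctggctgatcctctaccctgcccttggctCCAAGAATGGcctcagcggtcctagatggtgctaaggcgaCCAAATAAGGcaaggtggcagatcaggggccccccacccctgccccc
Acta1: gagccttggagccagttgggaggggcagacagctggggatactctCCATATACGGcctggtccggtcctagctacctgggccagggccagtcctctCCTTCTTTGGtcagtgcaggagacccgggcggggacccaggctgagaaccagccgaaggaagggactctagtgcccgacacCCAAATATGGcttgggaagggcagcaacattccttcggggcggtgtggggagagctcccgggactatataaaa
Acta2: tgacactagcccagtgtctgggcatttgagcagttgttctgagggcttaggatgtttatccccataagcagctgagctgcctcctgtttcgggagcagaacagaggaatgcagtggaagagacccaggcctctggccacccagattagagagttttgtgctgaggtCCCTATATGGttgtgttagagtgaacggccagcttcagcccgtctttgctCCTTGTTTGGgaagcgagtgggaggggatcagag

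Actc1 held a CArG box 47 bases before its start, CCAAATAAGG, and Acta1 held CCAAATATGG 73 bases before its start. Acta2 held no full box in this window but a pair of windows 1 letter away, CCCTATATGG at 84 and CCTTGTTTGG at 34 bases. The window CCCTATATGG also stood in Actc1, 175 bases before its start. The box reads the same on both strands, and it occurred in 535 of 32851 RefSeq promoters of 300 bases (1.63%), while a box or a window 1 letter away occurred in 9.98%. The promoters of Cnn1, Actn2, and Actn1 held neither, and of the 7 genes 6 matched the promoter table; Tagln was not among them. A match is a description of the letters and not of binding.

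Srf itself stood at 74.1, 42.1, and 32.4 CPM over the 3 ages and was called lower at P1 than at E9.5. Single cells held 32.2%, 57.0%, and 66.5% of its counts, and 53.03, 19.96, and 11.2 CPM remained without them. Its cardiac and smooth muscle coactivator Myocd stood at 269, 251, and 269 CPM, and the coactivator Mkl2 at 108, 86.6, and 120 CPM, neither of them called, and Myocd at E12.5 was 147 CPM without 1 cell. Of the 3 tested genes of Srf and its coactivators, Srf was thus the 1 called, beside 26.6% of all tested genes lower at P1 than at E9.5. The other gene of that list, Mkl1, stayed under 10 CPM at all time points.

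Tagln, an actin-bundling protein of smooth muscle, showed the largest pooled ratio of the 7 genes between the embryo and P1. Its level was 1218 CPM (1211 to 1224) in the E9.5 cells, 505 CPM (499 to 511) in those of E12.5, and 24.8 CPM (21.2 to 28.8) in the P1 cells. The median cell held 541, 126, and 0 CPM over the 3 ages, with highest cells at 5311, 3217, and 653 CPM. P1 lay below most embryonic cells, although 5 embryonic cells of 42 and 8 of 29 were also at 0. Tagln was found in 37 of 42 cells (88.1%, 74.4 to 96.02), 21 of 29 (72.4%, 52.8 to 87.3), and 4 of 41 (9.76%, 2.72 to 23.1), and after thinning in 83.3%, 58.6%, and 2.44%.

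P1 was 49.1-fold lower than E9.5 in Tagln (log2 −5.62, −5.66 to −4.64) and 20.4-fold lower than E12.5 (log2 −4.35, −4.58 to −4.28). E12.5 over E9.5 was −1.27, with −0.06 within the sets C, and was not called. At E12.5, 1 cell held 60.3% of the Tagln counts, and 237 CPM remained without it. The P1 level rested on 1 cell, which held 166 of the 169 counts, and the remaining 40 cells held 3 counts in 3 cells, 0.457 CPM. The gene model of Tagln overlaps exons of Pcsk7 and of an antisense RNA on the plus strand. The library kit does not mark the strand, and reads of these genes cannot be told apart there.

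Cnn1, which binds actin and restrains the myosin ATPase of smooth muscle, was called lower at P1 than at both embryonic time points. Its level was 341 CPM (337 to 344) in the E9.5 cells, 565 CPM (559 to 572) in those of E12.5, and 46.04 CPM (41.1 to 51.4) in the P1 cells. It was the only one of Acta1, Acta2, Tagln, and Cnn1 found in all 29 cells at E12.5, between 22.2 and 1739 CPM with a median of 327 CPM. At E9.5 it was found in 33 of 42 cells (78.6%, 63.2 to 89.7) with a median of 277 CPM, and at P1 in 6 of 41 (14.6%, 5.57 to 29.2) with a median of 0. Thinning left the E12.5 and P1 shares at 100% and 14.6%. P1 was 12.3-fold lower than E12.5 (log2 −3.62, −3.71 to −3.10) and 7.402-fold lower than E9.5 (log2 −2.89, −2.89 to −2.85). E12.5 over E9.5 was 0.73 (0.20 to 0.86) and was not called. At E12.5, 1 cell held 40.9% of the Cnn1 counts, and 385 CPM remained without it. At P1, 1 cell held 69.1%, and 14.8 CPM remained without it, with log2 ratios of −5.26 to E12.5 and −4.53 to E9.5.

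**Figure D4:**
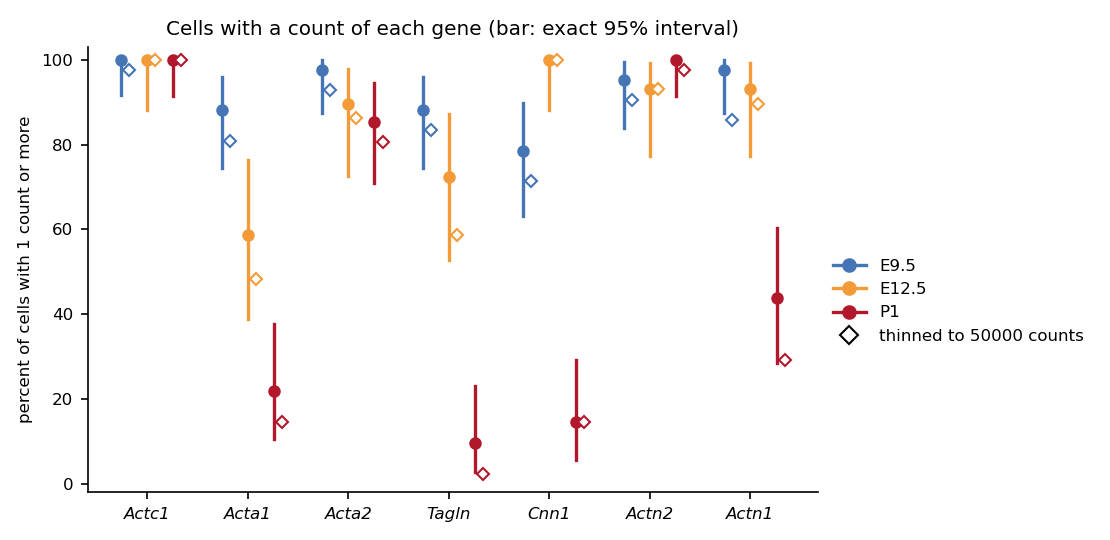
Percent of kept cells with 1 count or more of each gene at each time point, with the exact 95% interval (bar), and the percent after thinning every cell to 50000 counts (diamond). Actc1 was found in every cell before thinning, and Tagln and Cnn1 were found in 9.76% and 14.6% of the P1 cells.

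The smooth muscle genes were also counted together in each cell. Acta2, Tagln, and Cnn1 were all found in 30 of 42 (71.4%), 19 of 29 (65.5%), and 3 of 41 cells (7.32%, 1.54 to 19.9). Acta2 without Tagln and without Cnn1 was seen in 1 of 42 cells, in 0 of 29, and in 29 of 41 (70.7%, 54.5 to 83.9). At P1 Acta2 without Tagln and Cnn1 was hence the common state, while in the embryo Acta2 came with Tagln or Cnn1 in all but 1 cell. All 7 genes were found in 29, 13, and 1 cells, and the median cell held 7, 6, and 4 of them. These joint counts were made at full depth, where 1 count in a median cell equals 0.404, 2.03, and 6.71 CPM, so depth also enters them.

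Of the P1 cells, 1 held all 7 genes, with 4212 CPM of Acta1, 1610 CPM of Acta2, 653 CPM of Tagln, 854 CPM of Cnn1, and 37583 CPM of Actc1 and with levels inside the embryonic range of each. With 254053 counts it was among the deeper P1 cells, and 8 of the 10 CM markers passed 100 CPM. Its smooth muscle and mural markers summed to 7.87 CPM, and its fibroblast and endothelial markers were at 0. It held 98.2% of the Tagln, 88.8% of the Acta1, and 69.1% of the Cnn1 counts of P1, and the 4 calls at P1 were also made without it.

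Smooth muscle or mural cells would carry the same genes, and 8 of their markers were followed beside them. Of these, 7, 6, and 3 had a count over the 3 ages, and their summed level was 182, 38.3, and 221 CPM, with cells from 0 to 1694, 0 to 834, and 0 to 1205 CPM. Myh11, the smooth muscle myosin that defines the mature lineage, had 21 counts in 2 cells at E9.5 and none later, which allows up to 0.0594 and 0.440 CPM. At P1 Lmod1, Rgs5, Pdgfrb, and Kcnj8 were at 0 too, and Abcc9, a potassium channel subunit that CMs also use, made up 209 of the 221 CPM. Fibroblast markers summed to 208, 51.4, and 3.37 CPM, endothelial markers to 55.7, 0.0594, and 303 CPM, and epicardial markers to 188, 33.3, and 21.4 CPM. Erythroid markers summed to 4.67, 0.0396, and 0 CPM and macrophage markers to 42.1, 6.69, and 13.3 CPM. Single cells made much of these sums: at P1 the fibroblast and endothelial markers lay in the 1 cell under the marker cut and the macrophage markers in 1 other cell, and at E9.5 the highest cells held 4007 CPM of fibroblast and 2695 CPM of epicardial markers. The part of such cells in the levels was not tested.

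Other genes of the smooth muscle contractile apparatus were mostly lower at P1 as well. Of 12 tested genes on this list, 9 were lower and 0 higher at P1 than at E9.5, with a median log2 ratio of −2.39, beside 26.6% lower and −0.59 over all tested genes. Cnn2, a calponin of non-muscle and smooth muscle cells, stood at 694, 959, and 78.2 CPM, and Cald1, the thin filament protein caldesmon, at 167, 74.8, and 28.6 CPM. Lmod1, which seeds actin filaments in smooth muscle, fell to 1.25 CPM in E12.5 hearts, all of it in 1 cell, from 50.8 CPM before, and had no count in P1 hearts, at least 115-fold lower than at E9.5 against a floor of 3 counts over the time point. The regulatory light chain Myl9 stood at 1376, 1539, and 986 CPM and was not called. Against E12.5, 6 of 11 tested genes were lower at P1 (median −1.82), beside 16.2% and 0.05 over all tested genes, and 1, Smtn, was higher (1.52 and 35.8 CPM). At E12.5, 1 of 11 tested genes, Lmod1, was lower than at E9.5, a share near the 10.7% of all tested genes.

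The genes called on the list of thin filament regulators, sarcomeric partners of actin, were all higher at P1. Of 20 tested genes for thin filament regulators, 8 were higher, 0 lower, and 12 not called at P1 over E9.5 (median log2 ratio 1.07), where 13.2% of all tested genes were higher and the median was −0.59. Of 19 tested against E12.5, 7 were higher, 0 lower, and 12 not called (median 0.92), where 15.6% of all tested genes were higher and the median was 0.05. The troponins Tnni3, Tnnt2, and Tnnc1 rose, Tnni3 from 970.0 and 1335 to 5410.1 CPM and Tnnt2 from 1730.3 and 2666 to 8799.9 CPM over the 3 ages. Between the embryonic time points 1 of 18 tested genes of the list was higher at E12.5, beside 3.43% of all tested genes. This gene, Myoz2, a Z-disc protein that binds alpha-actinin, stood at 9.88, 135, and 504 CPM over the 3 ages. Nrap, which helps to assemble myofibrils, stood at 0.139, 3.92, and 124 CPM, and the formin Fhod3, which elongates sarcomeric actin, at 82.99, 52.4, and 317 CPM. The genes of this list with the most counts over all cells, Tpm1 (5844, 6554, and 8370.3 CPM) and Tnni1 (5263, 6594, and 4495 CPM), were not called.

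Actin regulators outside the sarcomere were called lower or not at all. On the list of non-muscle actin cytoskeleton genes, 10 of 17 tested were lower and 0 higher at P1 than at E9.5 (median log2 ratio −1.33), beside 26.6% lower and −0.59 over all tested genes. Against E12.5, 5 of 16 were lower and 0 higher at P1 (median −0.92), beside 16.2% lower and 0.05. The other 7 and 11 genes were not called. Myh9, the heavy chain of non-muscle myosin IIA, stood at 271, 111, and 30.5 CPM, and the tropomyosin Tpm3 at 144, 58.3, and 13.2 CPM. With Vasp, these were also the 3 of 17 tested genes lower at E12.5 than at E9.5, beside 10.7% of all tested genes. The filament crosslinker Flna stood at 315, 53.2, and 34.02 CPM and was called lower at P1 than at E9.5. The cycling genes summed to 1931, 1479, and 39.4 CPM, with 882 and 1424 CPM within the sets C of E9.5 and E12.5, the opposite order, and 8 of 8 were lower at P1 than at E9.5, beside the same 26.6%.

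Actn2, the alpha-actinin of the Z-disc, stood at 993 CPM (987 to 999) in the E9.5 cells, 1494 CPM (1484 to 1505) in those of E12.5, and 1831 CPM (1799 to 1863) in the P1 cells. The median cell held 710.1, 573, and 1711 CPM, and the gene was found in 40 of 42, 27 of 29, and 41 of 41 cells. None of its ratios was called. They ranged with the naming set: at E9.5 set C held 568 CPM and set N530 1018 CPM, and at E12.5 set C held 635 CPM and set N523 1669 CPM. P1 over E9.5 was 0.88 on the log2 scale (0.85 to 1.69), and P1 over E12.5 was 0.29 (0.13 to 1.53).

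Actn1, the non-sarcomeric alpha-actinin, stood at 148 CPM (145 to 150.01) in the E9.5 cells, 128 CPM (125 to 131) in those of E12.5, and 29.2 CPM (25.3 to 33.5) in the P1 cells. The median cell held 164, 177, and 0 CPM, and the gene was found in 41 of 42 cells (97.6%), 27 of 29 (93.1%), and 18 of 41 (43.9%, 28.5 to 60.3), after thinning in 85.7%, 89.7%, and 29.3%. P1 was 5.06-fold lower than E9.5 (log2 −2.34, −3.63 to −2.21) and 4.40-fold lower than E12.5 (log2 −2.14, −3.18 to −1.80). The embryonic time points did not differ beyond the sets, at 362 and 135 CPM in sets C and N530 and at 265 and 102 CPM in sets C and N523. Antisense genes overlap its exons, with the same limit on strand as for Tagln.

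By mean TPM, Actn1 made up 17.5%, 15.8%, and 1.39% of the alpha-actinins over the 3 ages. Among E9.5 cells its share was 37.1% for set C but 10.9% for set N530, and among E12.5 cells 25.6% for set C but 4.90% for set N523. Actn1 held more than Actn2 in 10, 6, and 2 cells. The gap between sets of one age was as wide as the difference between ages, and P1 lay below each of the embryonic sets.

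Acta2 and Tagln were next set against Actc1 cell by cell, as correlations of log2(CPM + 1) within each naming set, which are descriptions of cells that share a naming set and differ in depth. For Acta2, Pearson's r was 0.98 in set C at E9.5 (14 cells), 0.41 in set N530 (28 cells), 0.31 in set C at E12.5 (20 cells), 0.62 in set N523 (8 cells), and 0.40 at P1 (41 cells). Spearman's coefficient was 0.81, 0.45, 0.11, 0.024, and 0.53 in the same order. The highest of these rested in part on the 3 cells with little Actc1, and r was 0.60 in the 11 cells of that set that passed the marker cut. In set N523 it turned to −0.39 without the 2 cells farthest from the median in Actc1.

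For Tagln, r with Actc1 was 0.78, 0.48, 0.38, 0.42, and 0.07, and Spearman's coefficient was 0.84, 0.26, 0.22, 0.34, and −0.035 in the same order of sets. In the 11 marker cells of set C at E9.5, r was 0.87. Without the 2 cells farthest from the median in Actc1, r was 0.47, 0.29, 0.20, −0.058, and 0.10. At P1 only 4 cells held Tagln, so no relation could be seen. The sizes of r differed between sets of one age, and the sign in set N523 did not hold without 2 cells.

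**Figure D5:**
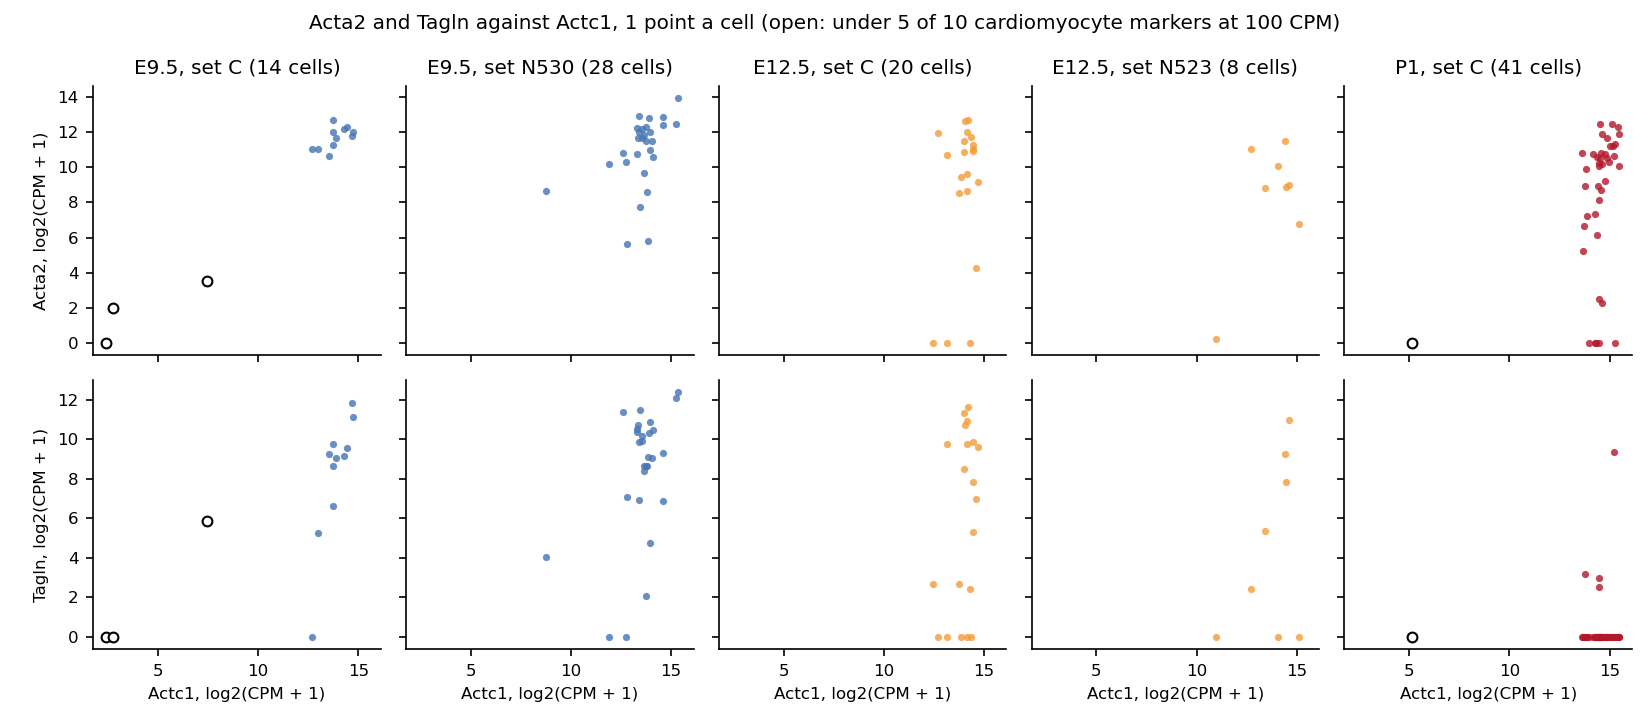
Acta2 (top) and Tagln (bottom) against Actc1 as log2(CPM + 1), 1 point a cell, with 1 panel for each naming set of 6 or more cells; open points are cells with under 5 of 10 CM markers at 100 CPM. At P1 Actc1 is tightly grouped, Acta2 spreads over the whole axis, and Tagln is 0 in all but 4 cells.

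The smooth muscle genes were also set against each other. The Spearman coefficient of Acta2 with Tagln was 0.67, 0.30, 0.47, 0.46, and −0.06 in the order of sets used above. The Spearman coefficient of Acta2 with Cnn1 was 0.78, 0.68, 0.20, −0.95, and 0.06, where the value in set N523 comes from 8 cells. The Spearman coefficient of Tagln with Cnn1 was 0.67, 0.15, 0.38, −0.37, and 0.58, where only 3 P1 cells held both genes and Pearson's r at P1 went from 0.63 to 0.12 without 2 cells. Actc1 and Actn2, both sarcomeric, gave 0.29, 0.12, 0.18, 0.76, and 0.10. In the 11 marker cells of set C at E9.5 the coefficients were lower, 0.39 for Acta2 with Tagln, 0.55 for Acta2 with Cnn1, 0.45 for Tagln with Cnn1, and −0.36 for Actc1 with Actn2. Acta2 against the number of genes found in a cell gave Spearman coefficients of 0.18, 0.62, −0.48, 0.21, and −0.16, of no common sign.

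The genes most like Actc1 over cells, by the median Spearman coefficient over the 5 sets among 1556 widely found genes, were Mdh2 (0.61), 1700019E19Rik (0.55), Cycs (0.54), Mdh1 (0.53), and Ndufb10 (0.53). Mdh1 and Mdh2 are malate dehydrogenases, Cycs is cytochrome c, and Ndufb10 is a subunit of respiratory complex I. Acta2 ranked 15 with 0.45 and Actn2 380 with 0.18. For Acta2 the leading genes were Smcr7 (0.57), 1700021F05Rik (0.57), Pdha1 (0.57), Fam96b (0.55), and Ppib (0.48), with Actc1 at rank 7. For Tagln, among 1557 genes, they were Gyg (0.48), Rab11a (0.47), Acta2 (0.46), and Smcr7 (0.46), with Actc1 at rank 115. Single sets scattered widely around these medians, from −0.21 to 0.66 for Smcr7 with Acta2.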

How the data were processed

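RNA of single αMHC-GFP-positive heart cells was amplified with SMART-Seq V4 on Fluidigm C1 chips and made into unstranded Nextera XT libraries. The authors aligned reads with OLego to GRCm38/mm10 and deposited featureCounts counts per gene, and they computed the deposited TPM per cell, whose columns sum to 1000000; the gene lengths behind TPM are not given in the sources used here. Cells with 2000 or more genes were kept (112 of 123). CPM was pooled per time point, with exact Poisson and Clopper-Pearson 95% intervals; 1 count equals 0.00990, 0.0198, and 0.147 pooled CPM over the 3 ages. Each time point is 1 sample, so no test was made. Ratios used a floor of 3 counts, a minimum of 10 CPM, and a 2-fold rule over naming sets of 6 or more cells. Named genes were the 7 members, list genes called or with the most counts in their list, and the 5 most alike genes, of which 1 for Tagln is not reported here. The 7 genes and the lists (other actins, smooth muscle contractile, thin filament regulators, non-muscle actin cytoskeleton, Srf and coactivators, cell type markers, cycling genes) were chosen with earlier results of these data known. Gene models were GENCODE on GRCm38, and promoters were from RefSeq. In all, 31 alternatives were planned, among them edgeR's TMM factors, and others were added after seeing the data. The ratio calls and the ranking of the most alike genes were tested on simulated data. Python 3.11.15, numpy 2.4.6, scipy 1.17.1, and pandas 2.3.3 were used. Doublets were not called, and each cell was its own library.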

Additional observations from a re-analysis of the deposited data

Results flagged for a closer look

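The 11 P1 cells with fewer than 2000 genes, which entered no comparison except under the alternative minimum of 1000 genes, also held signal above the floor of 4.20 CPM that 3 counts allow. With 4903 to 149120 counts each and 714929 in all, they held 18171 CPM of Actc1 (found in 11 of 11 cells), 1454.69 CPM of Acta2 (9 of 11 cells), and 1454.69 CPM of Actn2 (11 of 11 cells); the last 2 rest on the same number of counts, 1040 each. Acta1, Tagln, Cnn1, and Actn1 had no count in these cells.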

How the results depend on the processing

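Acta1, Tagln, Cnn1, and Actn1 were lower at P1 in both comparisons under every alternative setting tried, except that Acta1 against E12.5 was lost with a minimum of 3000 genes and without the cells titled "no". For E12.5 over E9.5, 1 gene was lower (Acta1) with TPM, means of cell CPM, thinning, or marker cells, 1 (Acta2) without the cells titled "no", and 2 (Acta1 and Acta2) at 1.5-fold, beside 6.19% to 15.1% of all tested genes lower under these settings. With set C only, 1 gene (Actn2) was higher at P1 than at E12.5, beside 21.0% of all tested genes. Higher at P1 than at E9.5 was 1 gene (Actn2) with TMM factors or at least 3000 genes, beside 16.3% and 13.7% of all tested genes. With set C only or at 1.5-fold, 2 genes (Actc1 and Actn2) were higher at P1 than at E9.5, beside 22.7% and 17.97%. The correlation of Acta2 with Actc1 was 0.60 in marker cells of set C at E9.5; in set N523 it was 0.024 as Spearman's coefficient, −0.39 without the 2 farthest cells, and −0.57 with at least 3000 genes. That of Tagln was 0.47 in set C at E9.5 and −0.058 in set N523 without the 2 farthest cells, and −0.035 at P1 as Spearman's coefficient. The Acta1 share of muscle actin at E9.5 was 4.19% as a median over cells. The causes were not tested.

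TMM factors moved the median log2 ratio of all genes by 0.43, −0.26, and 0.17 for E12.5 over E9.5, P1 over E12.5, and P1 over E9.5. Calls of all genes for E12.5 over E9.5 were then 4.97% higher and 8.51% lower, after thinning 3.33% and 6.19%, and in set C only 22.4% and 27.7%. For P1 over E12.5, TPM gave 11.0% higher and 18.3% lower, thinning 11.5% and 21.0%, and set C 21.0% and 33.7%. For P1 over E9.5, TMM gave 16.3% higher and 21.0% lower, TPM 9.34% and 33.1%, and set C 22.7% and 39.4%. Without the P1 cell with the most Tagln, an alternative added after seeing the data, log2 ratios of P1 over E9.5 were −6.79 for Acta1, −11.38 for Tagln (3 counts left), and −4.53 for Cnn1. At P1 a count in the median cell equals 6.71 CPM, so levels below that were not detectable in a cell of median depth. No paired analysis was possible because each time point is 1 sample and no test was made.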
